A study of Mus musculus with 5 samples.

Results

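The mRNAs of the translation initiation factors were examined base by base for m6A in mouse embryonic stem cells (mESCs). They were taken as every protein_coding gene of the mm10 GENCODE M21 annotation whose symbol starts with Eif1, Eif2, Eif3, Eif4, Eif5 or Eif6, which gave 55 of 21951 genes, and the positions analysed were the adenosines on their exons and on their own strand. Of the 55 genes, 31 had at least 1 such position with at least 25 valid calls in every library of a dataset, 24 had none, and 19 had positions in both datasets. All 4 kinases that phosphorylate eIF2 (Eif2ak1 to Eif2ak4) were among the 24 and are not described here.

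In direct RNA sequencing a native RNA molecule is pulled through a nanopore, and each adenosine of each read is called as m6A, as unmodified A or as another class, or fails the confidence filter. The m6A level of a position is the percent of its valid calls that were m6A. The METTL3 inhibition dataset held 1 library of E14 mESCs given the solvent DMSO (0.025% v/v) and 1 library of the same line given 30 µM STM2457, a small molecule that inhibits the m6A methyltransferase METTL3, for 48 h. Both came from a line that carries the reporters 2C::3xtbGFP-PEST and Zscan4::mCherry-PEST, a Dox::APOBEC1-YTH-HA-IRES-tdiRFP construct that was not induced, and a homozygous METTL3-FKBP12 F36V knock-in, also not induced. The Mettl5 dataset held 1 library of WT mESCs and 1 library each of Mettl5-KO clone #1 and clone #2, 2 separate knockout clones of these cells. The batch field of the sample labels has 1 value for DMSO and STM2457 and another for WT and both clones. Since DMSO, STM2457 and WT are single libraries, tests between them compare libraries, and intervals cover counting error only.

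The Eif genes held 7132 of 458029 exonic positions in the METTL3 inhibition dataset, on 28 genes, and 7308 of 186529 in the Mettl5 dataset, on 22 genes. Their median coverage was 98 valid calls in DMSO, 81 in STM2457, 71 in WT, 62 in clone #1 and 73 in clone #2. Of 10 embryonic stem cell marker genes, 10 had covered positions in the METTL3 inhibition dataset and 8 in the Mettl5 dataset, and of 10 markers of fibroblasts or differentiated cells none had any in either. No position on Mettl5 or Mettl3 was analysed here, so the knockout was not checked on its own transcript. Covered positions lay in blocks rather than over whole mRNAs. For example, all 117 positions of Eif3l lay in exon 11 of 13, all 149 of Eif2a in exon 10 of 14, and those of Eif5 stopped 227 bases before the stop codon in the METTL3 inhibition dataset but reached 1775 bases past it in the Mettl5 dataset.

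Initiation begins when eIF1, eIF1A, eIF3 and a ternary complex of eIF2, GTP and initiator tRNA assemble on the small ribosomal subunit. eIF2B recharges eIF2 with GTP, while eIF4E, eIF4G and the helicase eIF4A bind the cap and unwind the 5′ end, a step that the 4E-binding proteins block by occupying eIF4E. In mRNA, m6A is deposited mainly by METTL3 in DRACH motifs (D is any base but C, R is a purine and H is any base but G, with the methylated adenosine in the middle) and is concentrated near stop codons, in 3′ UTRs and in long internal exons. METTL5 is known for methylating an adenosine of the ribosomal RNA of the small subunit.

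A position counted as a site if every library of its dataset had more than 25 valid calls there and 1 or more of them reached a level of 25%. In the METTL3 inhibition dataset 36 of 6159 sites lay on Eif mRNAs, from 14 genes, and in the Mettl5 dataset 62 of 1847, from 13 genes. With both datasets together, 19 genes had a site and 12 covered genes had none. The sequences below are those of the sites with the highest level in each gene, where that level was 50% or more in DMSO or, for genes and sites led by the Mettl5 dataset, in WT. The capitals mark the 5 bases centred on the called adenosine, and the coordinates are mm10. No sequence is given for Eif1a.
Eif3b chr5:140443192 (+): ccattcacGGACTtgctgttc
Eif3a chr19:60761950 (-): aaaagcatGAACTtgtattaa
Eif2a chr3:58548559 (+): gccctcatGGACAtatattag
Eif4g1 chr16:20692464 (+): ggagccatGGACAcgtggatg
Eif4a2 chr16:23113512 (+): ttagagttAGACTgttggggg
Eif2b2 chr12:85226293 (+): tgcgtccaGGACTgctcctgc
Eif4ebp1 chr8:27275332 (+): caggggaaTGACTctcactca
Eif3l chr15:79089619 (+): tctatgagGAACTtttcagct
Eif5 chr12:111544930 (+): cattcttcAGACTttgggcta
Eif1b chr9:120495050 (+): taaacgacAGACTttgcgttt
Eif2b1 chr5:124571069 (-): gaatccgtGGACTtctgctct
Eif4g1 chr16:20679381 (+): attcctggGGACActatgaca
All 12 are DRACH motifs. The next 2 sequences are those of the sites that kept most of their level after STM2457, and in both the capitals lie outside DRACH.
Eif4g1 chr16:20685580 (+): caagggcaGCAGTgggggctc
Eif4h chr5:134621462 (-): gagcaagaCCACGgcctggtg

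The first comparison asked which adenosines of the initiation factor mRNAs lose their m6A call when METTL3 is inhibited. Of the 36 sites, 31 were lower after STM2457 by Fisher's exact test with Benjamini-Hochberg adjustment over all 6159 sites, and none was higher. Over all sites, 91.6% were lower and 0.292% higher by the same test. The rule that defines a site favours this direction. Of the 36 sites, 34 met the 25% mark in the DMSO library, 6 met it in the STM2457 library and 4 met it in both. Most therefore entered through DMSO alone, which by this rule puts DMSO above STM2457 there. With the mark set at 10%, 56 of 136 Eif sites were lower and 2 were higher. The 36 Eif sites averaged 49.5% in DMSO (SD 19.6 over sites) and 11.7% in STM2457 (SD 10.4), where all sites averaged 56.3% and 16.2%. At the 34 Eif sites with 25% or more in DMSO the median relative decrease was 83.5% (quartiles 78.6% and 91.9%), and it was 80.2% over all sites. Of these 34 sites, 4 were still at 25% or more after STM2457 (20.8% of all sites at 25% or more in DMSO), and 2 had lost less than 25% of their level (4.31%). At each of the 31 sites called lower the 95% intervals of the 2 libraries did not overlap.

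**Figure D1:**
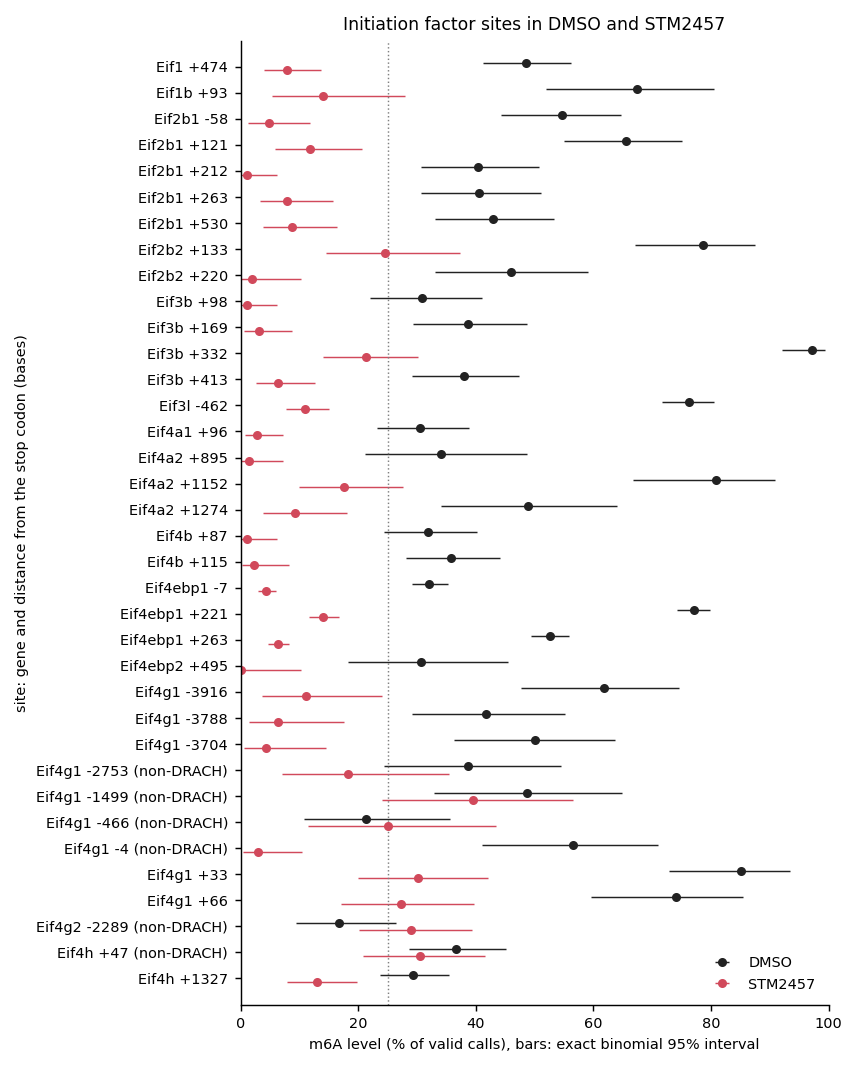
The m6A level of the 36 Eif sites of the METTL3 inhibition dataset in DMSO (black) and STM2457 (red), with exact binomial 95% intervals as bars, labelled by gene and by the distance from the stop codon in bases (negative before it). The dotted line marks 25%, and the sites where the red and black bars overlap are 5 of the 6 outside DRACH.

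Among the factors that select the start codon, Eif1 and its close paralog Eif1b had 1 site each, both in the 3′ UTR and both lower. The Eif1 site, 474 bases past the stop codon in exon 4 of 4, was at 48.6% in DMSO (88 of 181 valid calls, exact 95% interval 41.1 to 56.1%) and at 7.91% in STM2457 (11 of 139, 4.02 to 13.7%; adjusted exact p = 2.57e-15). The Eif1b site, 93 bases past the stop codon, was at 67.4% (31 of 46, 52.0 to 80.5%) and 13.95% (6 of 43, 5.298 to 27.9%; adjusted exact p = 8.07e-07). Of the covered positions of Eif1, 45.7% lie in 31-base stretches that also occur in transcripts of other genes, mostly Eif1 pseudogenes, so reads there may not be separable, but neither site is in such a stretch.

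All 7 sites of the eIF2B exchange factor were lower, 5 on Eif2b1, which encodes the alpha subunit, and 2 on Eif2b2, which encodes the beta subunit. Eif2b1 carried its sites over its last exon from 58 bases before to 530 bases after the stop codon. Its highest site, 121 bases past the stop codon, was at 65.6% in DMSO (61 of 93, 55.0 to 75.1%) and 11.8% in STM2457 (10 of 85, 5.79 to 20.6%; adjusted exact p = 3.23e-13), and the other 4 ranged from 40.4% to 54.6% in DMSO and from 1.12% to 8.70% in STM2457. The higher Eif2b2 site, 133 bases past the stop codon, was at 78.6% (55 of 70, 67.1 to 87.5%) and 24.6% (15 of 61, 14.5 to 37.3%; adjusted exact p = 1.58e-09). The second Eif2b2 site was 220 bases past the stop codon and was at 45.9% and 1.92%. The covered blocks of the epsilon and delta subunits, Eif2b5 and Eif2b4, ended 172 and 382 bases before the stop codon, and neither had a site.

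All 5 sites on the eIF3 scaffold, which holds the initiation complex together on the small subunit, were lower. The Eif3b site 332 bases past the stop codon had the highest DMSO level of all 36 sites, 97.2% (106 of 109, 92.2 to 99.4%), and was at 21.3% in STM2457 (23 of 108, 14.005 to 30.2%; adjusted exact p = 5.75e-33). The other 3 Eif3b sites, 98, 169 and 413 bases past the stop codon, were at 30.9%, 38.7% and 37.9% in DMSO and at 1.15%, 3.06% and 6.36% in STM2457. Eif3l carried a single site in the coding sequence, 462 bases before the stop codon in exon 11 of 13, at 76.3% (290 of 380, 71.7 to 80.5%) and 10.96% (33 of 301, 7.67 to 15.1%; adjusted exact p = 1.89e-68). The other covered subunit genes, Eif3c, Eif3d, Eif3f, Eif3g, Eif3i and Eif3k, had no site.

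The mRNAs of the 4E-binding proteins, which keep eIF4E away from eIF4G, held 4 sites, all lower. Eif4ebp1 was the most deeply read of them and gave the narrowest intervals. Its site 221 bases past the stop codon was at 77.2% in DMSO (686 of 889, 74.3 to 79.9%) and 14.01% in STM2457 (108 of 771, 11.6 to 16.7%; adjusted exact p = 9.14e-155). The site 263 bases past the stop codon was at 52.6% and 6.27%, and a site in the coding sequence, 7 bases before the stop codon, was at 32.1% and 4.34%. The Eif4ebp2 site, 495 bases past the stop codon, was at 30.6% in DMSO (15 of 49, 18.3 to 45.4%) and had no m6A call among 34 valid calls in STM2457, which allows a level of up to 10.3% (adjusted exact p = 0.000316).

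The cap-binding complex and its helicase held 18 sites, of which 13 were lower. The helicase gene Eif4a2 had 3, from 895 to 1274 bases past the stop codon. The highest of them, 1152 bases past it, was at 80.9% in DMSO (38 of 47, 66.7 to 90.9%) and 17.5% in STM2457 (14 of 80, 9.91 to 27.6%; adjusted exact p = 8.00e-12). Eif4a1, the other eIF4A gene, had 1 site, 96 bases past the stop codon, at 30.6% and 2.86% (adjusted exact p = 2.70e-10). Eif4b, whose product stimulates the helicase, had sites 87 and 115 bases past the stop codon, the latter at 35.8% and 2.33% (adjusted exact p = 7.55e-10). Eif4h, a second helicase cofactor, had a site 1327 bases past the stop codon at 29.4% and 13.04% (adjusted exact p = 0.000352), the smallest relative decrease, 55.6%, among the 30 DRACH sites.

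Eif4g1, the scaffold that joins eIF4E, eIF4A and eIF3, held 9 sites, more than any other Eif gene. It also had the most covered positions of them, 1178. In its last exon, 33 and 66 bases past the stop codon, lay 2 sites at 85.2% (46 of 54, 72.9 to 93.4%) and 74.0% (37 of 50, 59.7 to 85.4%) in DMSO. They were at 30.1% (22 of 73, 19.9 to 42.0%) and 27.3% (18 of 66, 17.03 to 39.6%) in STM2457 and were the only DRACH sites of the Eif mRNAs still at 25% or more there, although both were lower (adjusted exact p = 1.40e-09 and 1.51e-06). Exon 10 of 33, far from the stop codon, held 3 further sites. They lay 3916, 3788 and 3704 bases before the stop codon and were at 61.8%, 41.7% and 50% in DMSO and at 11.1%, 6.38% and 4.26% in STM2457. A site 4 bases before the stop codon in the word CAACT, which is not DRACH, was at 56.5% and 2.99% (adjusted exact p = 1.99e-10).

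The sites that were lower and those that were not differed in their motif. All 30 DRACH sites were lower, with relative decreases from 55.6% to 100% (median 84.2%, against 80.8% over all DRACH sites), while 1 of the 6 other sites was. Over all genes 97.5% of DRACH sites and 45.7% of other sites were lower. The 5 sites that were not lower were 3 coding sites on Eif4g1, 1 coding site on Eif4g2, a relative of Eif4g1 that does not bind eIF4E, and the Eif4h site 47 bases past the stop codon. The 2 that kept their level were Eif4g1 at chr16:20685580 in exon 22, at 48.8% in DMSO (20 of 41, 32.9 to 64.9%) and 39.5% in STM2457 (15 of 38, 24.0 to 56.6%; adjusted exact p = 0.512), and Eif4h at chr5:134621462, at 36.6% (52 of 142, 28.7 to 45.1%) and 30.5% (25 of 82, 20.8 to 41.6%; adjusted exact p = 0.397). The Eif4g2 site was at 16.7% (14 of 84) and 29.0% (27 of 93; adjusted exact p = 0.0791). The remaining Eif4g1 sites, in exons 14 and 30, were at 38.6% and 18.2% (adjusted exact p = 0.0833) and at 21.3% and 25% (adjusted exact p = 0.798).

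These 5 sites also had many calls that failed the confidence filter. Failed calls were 26.6% to 43.2% of valid and failed calls in DMSO and 36.7% to 43.3% in STM2457, while at the 31 lower sites they were 0% to 14.9% and 0% to 15.9%, so the ranges did not overlap. Over all sites of the dataset the DMSO median was 34.7% at sites that kept their level and 3.30% at the others with 25% or more in DMSO. The part of failed calls in the result was not tested.

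**Figure D2:**
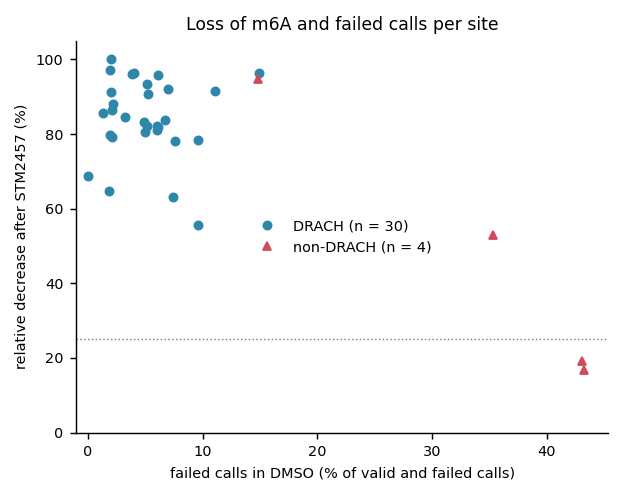
Relative decrease of the m6A level after STM2457 against the share of failed calls in DMSO, for the 34 Eif sites with 25% or more in DMSO, split into DRACH (blue) and other sites (red). The 30 DRACH sites sit at or below 14.9% failed calls, and the 2 sites under the dotted line at 25% sit at 43.1% and 43.2%.

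Most DRACH motifs of the Eif mRNAs had a low level, and of the 30 at 25% or more in DMSO 28 lay 100 bases or more from an exon junction. DRACH motifs made up 7.84% of the covered Eif adenosines and 8.63% of all covered adenosines, counted on the call strand. Of the 554 Eif DRACH positions, 30 (5.42%, exact 95% interval 3.68 to 7.64%) reached 25% in DMSO, against 14.4% of 38030 over all genes. The intervals of such shares, here and below, treat positions as independent. Positions of a gene share reads, so these intervals leave out spread between genes, and differences from all genes were not tested. Fewer than 50 bases from an exon junction, 1 of 221 did (0.452%, against 0.712% over all genes), from 50 to 99 bases 1 of 94 did (1.06%, against 4.57%), and at 100 bases or more 28 of 239 did (11.7%, 7.93 to 16.5%, against 20.8%). The 1 site close to a junction was the Eif4ebp1 site 7 bases before the stop codon, 24 bases from it.

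In DMSO the share within this distant class was close in last exons and in other exons. At 100 bases or more from a junction 4 of 34 DRACH positions outside the last exon (11.8%, 3.30 to 27.5%) and 24 of 205 in it (11.7%, 7.65 to 16.9%) were at 25% or more in DMSO, against 20.7% and 20.8% over all genes. The 4 were the 3 sites in exon 10 of Eif4g1 and the site of Eif3l. By region 24 of 212 3′ UTR positions (11.3%) and 6 of 328 coding positions (1.83%) reached 25%, against 18.8% and 9.38% over all genes. These shares by region are not matched for distance from a junction. In WT the shares were 36 of 273 at 100 bases or more (13.2%, 9.41 to 17.8%, against 12.2%), 0 of 81 from 50 to 99 bases, which allows up to 4.45% (2.20% over all genes), and 2 of 187 closer than that (1.07%, against 0.401%). In WT 11 of 51 distant positions outside the last exon (21.6%, 11.3 to 35.3%) were at 25% or more, and 25 of 222 in it (11.3%, 7.42 to 16.2%), where the shares over all genes were 13.2% and 12.1%.

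**Figure D3:**
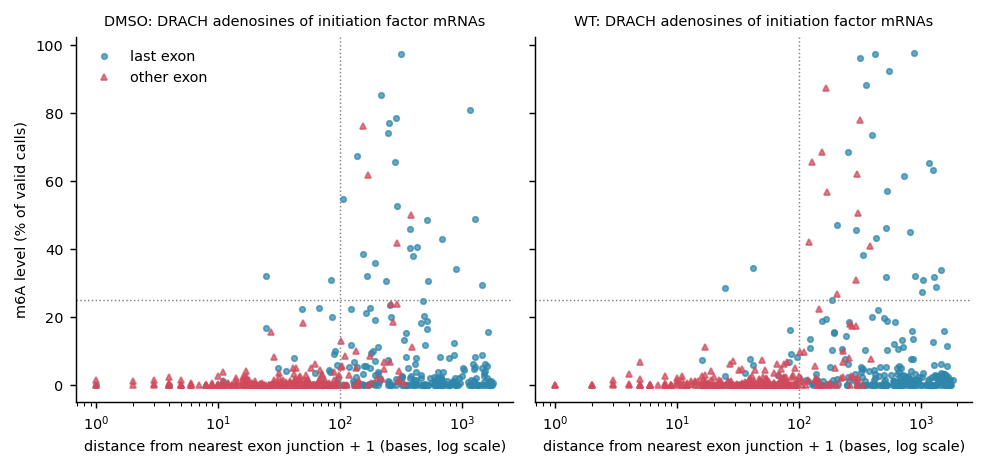
The m6A level of each DRACH adenosine of the Eif mRNAs in DMSO (left) and WT (right) against its distance from the nearest exon junction on a log scale, with last exons in blue and other exons in red. The points above the horizontal line at 25% lie, but for 2 in each panel, to the right of the vertical line at 100 bases.

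Within DRACH the share at 25% or more varied with the 5-base word. In DMSO the word GGACA held 8 of the 36 sites, and the word GGACT held 7. Of 37 covered GGACT positions on Eif mRNAs, 7 (18.9%, 7.96 to 35.2%) were at 25% or more, against 55.2% over all genes. For GGACA it was 8 of 40 positions (20%, 9.05 to 35.6%), against 31.9%. In WT, where other Eif positions are covered, the former gave 7 of 27 (25.9%, 11.1 to 46.3%, against 40.7%) and the latter 9 of 40 (22.5%, 10.8 to 38.5%, against 17.6%). None of the 44 positions in the word AGACA was at 25% in DMSO, which allows up to 8.04%, against 7.28% over all genes. The shares by word are not matched for distance from a junction. In the METTL3 inhibition dataset 221 of 554 Eif DRACH positions lay fewer than 50 bases from one, against 8424 of 38030 over all genes.

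Summed over all covered adenosines of a gene, m6A calls were rare. For the 27 Eif genes with at least 50 positions the median was 1.08% before and 0.80% after STM2457, and for 2302 genes it was 1.57% and 0.88%. The gene level was at most 50% of that in DMSO in 4 of 27 (41% of all genes). They were Eif4ebp1 (3.44% and 1.38%), Eif2b2 (2.98% and 1.10%), Eif2b1 (2.96% and 1.19%) and Eif4a1 (1.402% and 0.643%). The gene level pools DRACH and other positions. Over the other positions 0 of the 27 genes fell to 50% or less. Their median there was 0.873% before and 0.847% after treatment (0.906% and 0.771% for all genes). Over DRACH positions alone 22 of the 27 were that low, against 93.1% of all genes. The median relative decrease over DRACH positions was 80.7% for the Eif genes and 79.7% for all genes. For example, the DRACH level of Eif3b was 26.4% in DMSO and 5.10% in STM2457, and that of Eif4ebp1 was 29.7% and 4.62%.

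For 4 of the 27 genes, all without a site in that dataset, the gene level was above DMSO after STM2457 (3.74% of all genes): Eif2d, Eif3c, Eif3k and Eif5. The m6A calls among valid calls in DMSO and STM2457 were 45 of 6160 and 20 of 1872 for Eif2d, and 17 of 3562 and 32 of 5089 for Eif3c. They were 335 of 40993 and 200 of 22993 for Eif3k, and 60 of 11545 and 111 of 17621 for Eif5. Most of these are small counts, and the differences were not tested. In Eif5, whose product triggers GTP hydrolysis on eIF2, the level was 0.52% in DMSO and 0.63% in STM2457, its DRACH positions were at 1.24% and 0.27% and its other positions at 0.47% and 0.65%. Eif6, which keeps the large subunit from joining early, had the highest DRACH position among the genes without a site, 23.8% in DMSO and 0.935% in STM2457. Other positions just under 25% were on Eif2b1 (24.7% in DMSO) and Eif4g1 (24.4% in STM2457).

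Read depth per gene, the summed valid calls on the same positions centred on the median gene, differed by 1.5-fold or more between STM2457 and DMSO in 7 of 27 Eif genes. It was higher in 4 (9.17% of all genes) and lower in 3 (8.25%), with 1 library each and no test. The higher ones were Eif5, with a log2 ratio of 0.90, Eif4a2 with 0.88, Eif3c with 0.81 and Eif1ad with 0.61, and the lower ones Eif2d with -1.42, Eif2b4 with -0.92 and Eif2b5 with -0.59, named here after their values were seen. Of the covered positions of Eif5, Eif4a2 and Eif3c, 19.2%, 27.7% and 31.5% lie in 31-base stretches shared with transcripts of other genes. For Eif1ad, Eif2d, Eif2b4 and Eif2b5 this share was 0%. Its part in the depth was not tested. Fewer cells with an mRNA and less of it per cell cannot be told apart in these bulk libraries.

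The second comparison asked whether the level at these sites differs without METTL5. None of the 62 sites differed from WT in either clone by Fisher's exact test with adjustment over all 1847 sites, with a smallest adjusted exact p of 0.213 for clone #1 and 0.376 for clone #2. Over all sites, 0.0541% were called in clone #1 and 0.162% in clone #2. Before adjustment 5 sites in clone #1 and 2 in clone #2 had an exact p below 0.05 (6.5% and 7.53% of all sites), all 7 higher than WT, and none in both clones (2.17%). Most such sites of the whole dataset were also higher than WT, 93 of 120 in clone #1 and 104 of 139 in clone #2. No Eif site had a log2 fold change of 1.5 or more in both clones (1.14% of all sites) or of -1.5 or less in both (0.217%).

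The 62 sites averaged 43.4% (WT), 46.7% (clone #1) and 46.5% (clone #2). Both clones were above WT at 30 sites (45.2% of all sites), both were below it at 12 (23%), and they were on opposite sides at 20. Of the 62 sites 49 were at 25% or more in WT. The others entered through a clone, which by this rule puts at least 1 clone above WT there. The clone mean minus WT had a median of 3.50 points (2.46 over all sites) and ranged from -19.4 to 19.5. This median was 0.787 points with sites taken at 10% or more and 8.05 points at 50% or more. The median of clone #1 minus clone #2 was 0.283 points, against 2.60 for clone #1 minus WT and 4.16 for clone #2 minus WT. The SD over sites, which leaves out such a shift, was 7.37 points for clone #1 minus clone #2, against 8.89 and 8.41 for each clone minus WT. With 30 to 169 valid calls per site in WT, the 95% interval of a clone's difference from WT (Newcombe) was wide. It spanned a median of 31.9 points for clone #1 and 30.7 for clone #2. The interval included equal levels at 56 of the 62 sites for clone #1 and at 60 for clone #2. Differences that are small against that span were not detectable at this depth.

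**Figure D4:**
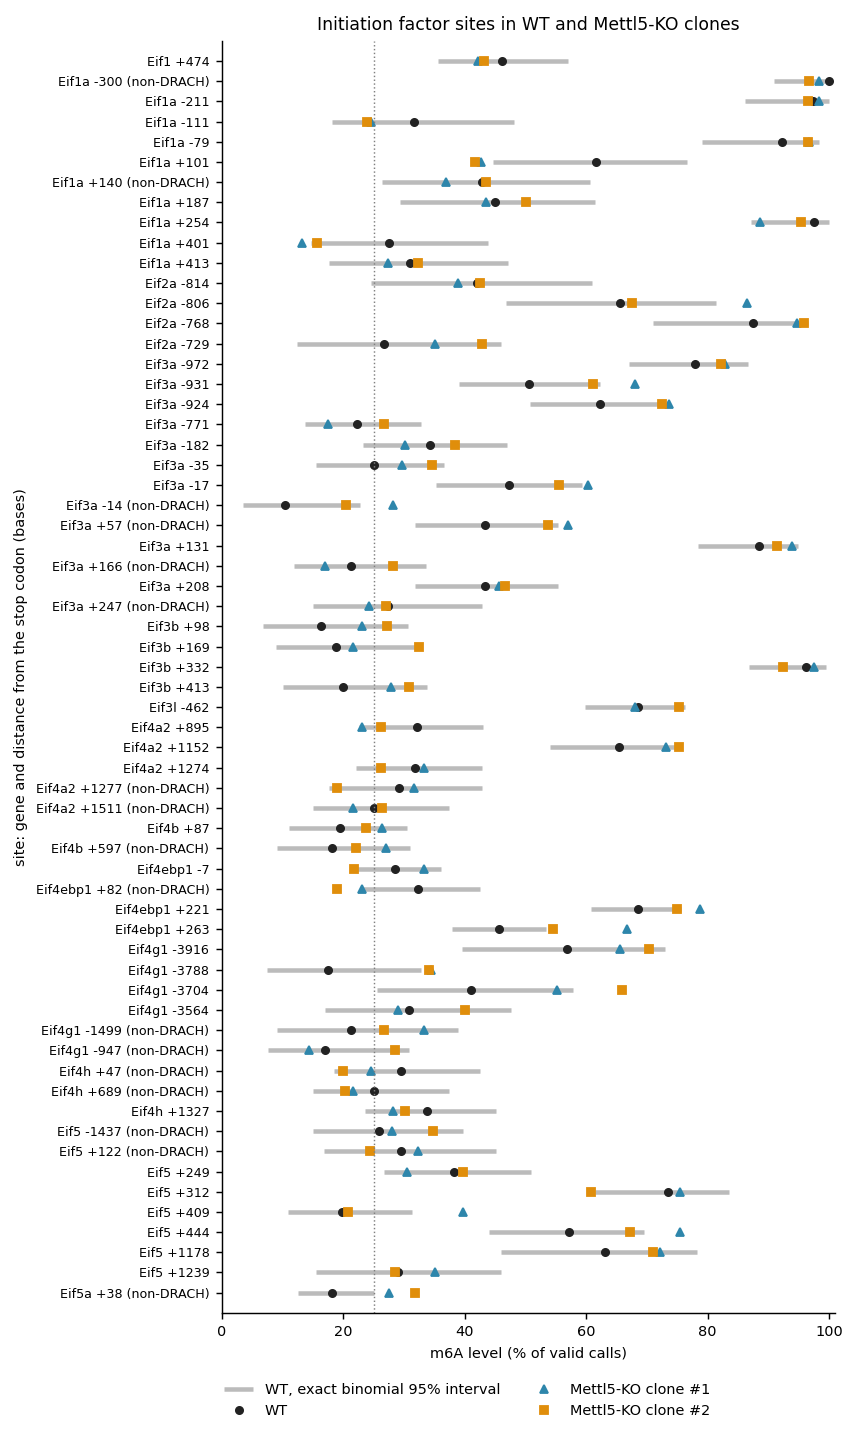
The m6A level of the 62 Eif sites of the Mettl5 dataset in WT (black circles with the exact binomial 95% interval in grey), clone #1 (blue triangles) and clone #2 (orange squares), labelled by gene and by the distance from the stop codon in bases. The clone points scatter to both sides of WT, and both lie above it at 30 sites and below it at 12.

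The start codon and ternary complex genes held 23 sites, 10 of them on Eif1a, 8 on Eif5, 4 on Eif2a and 1 on Eif1. Both clones were above WT at 8 of them and below it at 6. Eif1a, whose product works beside eIF1 in scanning, was covered over exon 3 of 3 and carried 4 sites above 90% in WT. Its highest, 300 bases before the stop codon at chr18:46607834 and outside DRACH, was at 100% (WT, 39 of 39), 98.4% (clone #1) and 96.7% (clone #2), with differences of -1.61 points (-8.59 to 7.45) and -3.28 points (-11.2 to 5.997). Of the 10, 2 sites lie in 31-base stretches shared with other genes' transcripts. The Eif2a site 768 bases before the stop codon, on the mRNA of a factor that can deliver initiator tRNA apart from eIF2, had levels of 87.5% (WT), 94.7% (clone #1) and 95.8% (clone #2). Eif5 was highest 312 bases past the stop codon, at 73.5%, 75.5% and 60.7%. The clones lay on opposite sides of WT there, with intervals of -13.9 to 16.9 and -28.7 to 3.62 points. The Eif1 site was at 46.2%, 42.1% and 43.1%.

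The eIF3 genes held 18 sites, with both clones above WT at 12 and below it at 1, where the shares over all sites were 45.2% and 23%. Several of the 12 entered through a clone alone, such as the Eif3b sites 98, 169 and 413 bases past the stop codon. Their WT levels were 16.3%, 18.8% and 20%. Nearby sites of a gene share reads, so the 18 are not independent. Of these 18 sites 13 were on Eif3a, which encodes the largest subunit. Its highest site, 131 bases past the stop codon, was at 88.4% (WT, 69 valid calls), 93.9% (clone #1) and 91.4% (clone #2), with differences of 5.53 points (-4.66 to 15.9) and 2.95 points (-6.93 to 13.6). The Eif3b site that led the METTL3 inhibition dataset was at 96.2%, 97.6% and 92.4%. Eif3l was at 68.5%, 68.1% and 75.3%. The interval of each of these differences at the leading sites includes 0. For clone #1 those of the Eif3a sites at chr19:60766639 (1.62 to 32.0 points) and chr19:60762095 (1.23 to 34.4 points) do not. These 2 are named after their values were seen, and their adjusted exact p was 0.721.

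Among the cap-binding genes and 4E inhibitors the intervals at the leading sites also include 0. Both clones were above WT at 7 and below it at 4 of the 16 sites of the former, and at 2 and 1 of the 4 sites of the latter. The leading Eif4a2 site was at 65.4% (WT), 73.2% (clone #1) and 75.3% (clone #2), with differences of 7.74 points (-6.36 to 21.5) and 9.86 points (-3.99 to 23.3). The Eif4g1 site 3916 bases before the stop codon was at 56.8%, 65.5% and 70.3%. The leading Eif4ebp1 site was at 68.6%, 78.7% and 75%, with intervals of -1.31 to 20.5 and -6.52 to 17.9 points. The highest sites of Eif4b and Eif4h in WT were at 19.4%, 26.4% and 23.8%, and at 33.8%, 28.2% and 30.1%.

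The 7 sites with an unadjusted exact p below 0.05 in 1 clone are named here after their values were seen. In clone #1 they were Eif2a at chr3:58548521, Eif3a at chr19:60766639, Eif4ebp1 at chr8:27275374 and Eif5 at chr12:111545027 and chr12:111545062. In clone #2 they were Eif4g1 at chr16:20679593 and Eif5a at chr11:69917315. The smallest p was at Eif4ebp1, which was at 45.6% in WT (169 valid calls), 66.7% in clone #1 (102; exact p = 0.00104, adjusted 0.213) and 54.5% in clone #2 (77; exact p = 0.217). The Eif5a site, 38 bases past the stop codon of an mRNA for a factor that also acts in elongation, was at 18.1%, 27.5% and 31.7% (adjusted exact p = 0.721 and 0.376) and is not in DRACH. Of the 62 sites 45 were in DRACH and 17 were not. In WT the median share of failed calls was 2.99% at the former and 28.6% at the latter.

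Of 20 Eif genes with at least 50 positions, both clones were above WT in 11 (36.4% of all genes) and below it in 5 (32.7%). Over DRACH positions alone these counts were 14 (46.9% of all genes) and 1 (21.8%). Depth was higher by 1.5-fold or more in both clones in none (3.06%) and lower in 1 (4.17%), Eif4ebp1, with log2 ratios of -0.59 and -1.28. Centred on total valid calls in place of the median gene, 0 genes were lower in both clones and 1 was higher, Eif1a, with log2 ratios of 0.90 and 0.74. The gene level of Eif4ebp1 was 3.66%, 4.06% and 3.82% (WT and the 2 clones).

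**Figure D5:**
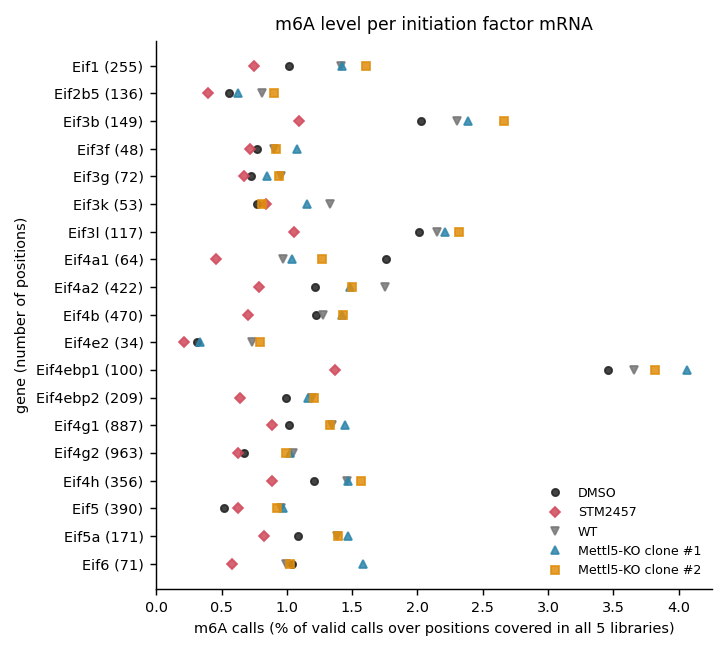
The m6A level of the 19 Eif mRNAs covered in both datasets, over the positions with at least 25 valid calls in all 5 libraries (number of positions in brackets). Eif4ebp1 is the highest in every library, from 1.37% in STM2457 to 4.06% in clone #1.

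Sites could be followed through all 5 libraries where both datasets covered them. Of the 62 sites of the Mettl5 dataset 27 were covered in the METTL3 inhibition dataset, and 19 were sites in both, on 8 genes. Over the 27, WT was below DMSO at 19 (72.2% of all such sites) and above it at 8 (27.5%), and WT minus DMSO had a median of -5.06 points (from -27.6 to 18.1, with a median of -6.30 over all such sites). Over the 19, which had to reach 25% in both datasets, it was below at 18 (83.4%). The Eif3b site 332 bases past the stop codon, for example, was at 97.2% in DMSO and 96.2% in WT, and the site 169 bases past it at 38.7% and 18.8%. Of the 8 sites above DMSO in WT 6 were outside DRACH, such as the Eif4ebp1 site 82 bases past the stop codon, at 15.03% and 32.3%. The 27 had to reach 25% in the Mettl5 dataset but not in DMSO, a rule that favours sites above DMSO. That Eif4ebp1 site was at 23.1% and 18.9% in the clones and entered through WT alone. The share outside DRACH was not counted over all such sites. Line, batch and library differ between the datasets and cannot be told apart.

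Other genes of the pathway that the symbol rule leaves out were counted from a list of 26, which holds poly(A)-binding proteins, start codon and recycling factors, kinases of eIF4E and targets of the eIF2 stress response. They had 9 sites on 6 genes in the METTL3 inhibition dataset, of which 7 were lower after STM2457 (91.6% of all sites) and none higher (0.292%). The median relative decrease was 79.3%, against 80.2% over all sites. In the Mettl5 dataset they had 19 sites on 7 genes, and none was called in either clone (0.0541% of all sites in clone #1 and 0.162% in clone #2).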

How the data were processed

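Poly(A) RNA of mESCs was sequenced directly (RNA004 chemistry, WarpDemuX adapters). Demultiplexing, dorado base and modification calling with alignment to mm10, and the modkit pileup were done by the authors. The deposited counts are valid, m6A, unmodified, failed and other calls per position and strand, not normalized, and the deposited percent is the m6A share of valid calls, which leaves out failed calls. All positions have at least 25 valid calls in every library of a dataset. Reads start at the poly(A) tail, so 3′ ends and abundant mRNAs are favoured.

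Positions were joined to exons, regions and transcript sequences of GENCODE M21 on the call strand (Python 3.11.15, pandas 2.3.3, numpy 2.4.6). The transcript base was A at 99.8% and 99.9% of positions in the 2 datasets. Distances and exon numbers refer to 1 transcript per gene. Levels were compared with Fisher's exact test, two-sided (scipy 1.17.1), adjusted over all sites on exons of protein_coding genes, and an adjusted p under 0.05 was called. The test was run on simulated binomial counts at the coverage of the sites, which hold counting error but no variation between libraries. Intervals of levels are exact binomial and those of differences Newcombe, both at 95%. Gene levels have no test, since calls on 1 read are not independent. Sites named by rule were the highest of each gene, those that lost less than 25% after STM2457 and those called in a clone. The genes and lists were chosen with earlier results of these data known. Alternatives were other coverage and level thresholds, RefSeq-linked exons, failed calls in the denominator, DRACH only, thinning, a pseudocount, other p and decrease thresholds, each clone left out, other gene minimums and another centring of depth. The 2 datasets were tested separately.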

Additional observations from a re-analysis of the deposited data

Results flagged for a closer look

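Besides m6A, the calls hold other modified classes of adenosine, inosine and 2′-O-methyladenosine pooled, which the comparisons above do not use. At 5 positions of Eif mRNAs these classes took 25% or more of valid calls in every library of a dataset, and no unmodified control RNA was sequenced. They were in exon 4 of Eif1 (29.63% in DMSO), exon 13 of Eif3a (38.1% in WT), exon 11 of Eif3l (45.9% in DMSO), exon 26 of Eif4g1 (43.18% in DMSO) and exon 13 of Eif4g2 (36.99% in DMSO). In Eif3l the share was 39.6% in STM2457, 33.9% in WT, 38.5% in clone #1 and 28.8% in clone #2, and in Eif4g2 it was 35.4%, 26.3%, 33.3% and 26.0%. Failed calls were 38.2% to 55.2% of valid and failed calls at these 5 positions, and their part in the result was not tested. In the METTL3 inhibition dataset 4 of 7064 Eif positions met this level (0.0566%, against 0.0367% of all positions), and in the Mettl5 dataset 3 of 7161 (0.0419%, against 0.0227%).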

How the results depend on the processing

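Counts of sites moved mainly with the level that defines a site. At 10% or more there were 136 sites in the METTL3 inhibition dataset, of which 56 were lower, 2 higher, 38 past 10% in both libraries and 24 that lost under 25% of their level, and 274 in the Mettl5 dataset, with 93 above and 77 below WT in both clones, 7 higher and 7 lower by log2 fold change and a median difference of 0.787 points. At 50% or more there were 14 sites, all 14 lower, 0 past 50% in both libraries and 0 that lost under 25%, and in the Mettl5 dataset 24 sites, 16 above and 3 below, with a median difference of 8.05 points. With at least 50 reads, 1 site lost under 25% of its level, and the Mettl5 dataset had 27 sites, 14 above and 4 below. With failed calls in the denominator 2 sites were at 25% or more in both libraries and 1 lost under 25%, with DRACH only these were 2 and 0, and 7 Mettl5 sites were below WT. After thinning to equal coverage 1 site was higher after STM2457, 2 were higher by log2 fold change in both clones, and the median difference was 5.13 points. Without either clone in turn, 20 to 21 sites were below WT, where only 1 clone has to be. Over DRACH positions 22 genes were at 50% of DMSO or less, and 14 were above and 1 below WT in both clones, and with at least 200 positions these counts were 0, 4 and 3. Centred on total calls, 1 gene was deeper in both clones and 0 were shallower. No Eif site was called by the test in both clones under any of the alternatives run. Of the values of named sites under alternatives, 118 of the METTL3 inhibition dataset stayed on their side of the threshold and 1 passed it (Eif4g2, 15.5 points higher in STM2457 after thinning), and 82 of the Mettl5 dataset moved by less than the SD of the 2 clones and 10 by more. No paired analysis was possible because the groups compared share fewer than 2 replicate numbers.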
